A study of Rattus norvegicus with 16 samples.

Results

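The genes described here are 9 genes of the elastic fibre and of the small proteoglycans of the artery wall. They were chosen by name, with earlier results of these data known. They are Fbn1, Mfap5, Eln, Fbln5, Fbln1 and Emilin1 for the elastic fibre, and Bgn, Dcn and Lum for the small proteoglycans. All 9 were among the 32883 genes listed in the deposited expression table, and all 9 were among the 13450 genes with a mean of at least 1 FPKM (fragments per kilobase, a level already scaled between libraries and for gene length) that were tested. The cells were primary vascular smooth muscle cells from rat aorta, kept in medium with 20% fetal bovine serum. For 48 h one group carried a control adenovirus and the other an adenovirus that encodes a short hairpin RNA against Nat10, the enzyme that acetylates cytidine in RNA to N4-acetylcytidine (ac4C). Input RNA came from 3 libraries with the control virus and 3 with the hairpin. An antibody against ac4C was used on RNA fragments of 100 to 200 nt from 3 control and 3 knockdown samples, and RNA bound to the NAT10 protein was pulled down from 3 samples labelled as wild type with no treatment (NAT10 RIP). The study asked what NAT10 does in vascular smooth muscle. All 6 input libraries thus came from cells that carried an adenovirus. The series calls the replicates biological repeats without saying whether they came from separate animals, so a p-value here covers only the variation among these libraries, part or all of which may be technical.

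Elastic fibres give arteries their recoil. They consist of a core of cross-linked elastin, laid down by fibulins and lysyl oxidases on a scaffold of microfibrils whose main component is fibrillin. Biglycan, decorin and lumican belong to the small leucine-rich proteoglycans, which sit on collagen fibrils and bind growth factors, and smooth muscle cells are a main source of this matrix in the media.

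The input libraries held 6418188 to 12066096 recovered fragments each. Nat10 measured 7.69, 9.22 and 9.95 FPKM across the controls and 4.38, 3.68 and 4.58 FPKM after knockdown, a log2 change of -0.93 with a standard error of 0.19 (adjusted p = 0.227, limma), so the target of the hairpin was lower in every knockdown library without passing the adjusted threshold. All 10 smooth muscle markers stood above 1 FPKM in every library. Their summed level was 4770 to 6480 FPKM in the controls and 787 to 3520 FPKM in the knockdown libraries. Of 10 adventitial fibroblast markers 6 stood above 1 FPKM in every library (Cd34 was under 1 in each), with a summed level of 413 to 521 FPKM in the controls and 201 to 462 FPKM in the knockdown libraries. None of the 7 matched endothelial markers did (summed level 1.76 to 4.87 FPKM in the controls and 0.821 to 2.82 FPKM in the knockdown libraries, Cldn5 listed at 0), and 2 of 9 leukocyte markers did (8.1 to 19.8 FPKM in the controls and 7.99 to 28.0 FPKM in the knockdown libraries, Cd3e and Cd79al listed at 0). Each sum mostly follows few genes, as in control library 1. There Acta2 and Tagln stood at 2176 and 3207 FPKM, Serpinf1 of the fibroblast markers at 278.4, and Cd74 and Cd68 of the leukocyte markers at 16.0 and 2.87. By gene, the log2 change was negative for all 10 smooth muscle markers and for 8 of 9 tested fibroblast markers. The part of these shifts in marker levels in the results below was not tested. Control libraries 2 and 3 lay unusually close together: the median chi-square of a gene between their fragment numbers was 0.747, against 3.22 to 10.254 for the other 14 pairs of libraries. Control library 1 stood apart from both, at 4.057 from library 2 and 4.199 from library 3. Knockdown library 3 lay closer to them, at 3.261 and 3.22. The largest values were those of knockdown library 2 against control libraries 2 (10.254) and 3 (10.085). The changes of the genes in which control library 1 is far from the other controls are given with and without it.

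None of the 9 genes passed an adjusted p of 0.05 in limma, and the same threshold called 0.0% of the 13450 tested genes. The voom fit on recovered fragments called none either. At an unadjusted p under 0.05, 1 of the 9 genes was called (Fbln5, lower), against 12.5% of all tested genes (744 higher and 935 lower, or 1129 and 569 when scaled to total fragments). In the voom fit 2 of the 9 were called, beside 729 higher and 967 lower over all tested genes. The count was 3 without control library 2, beside 365 higher and 468 lower over all tested genes. It was 2 without control library 3 (356 and 484 over all) and 0 without knockdown library 1 (561 and 678 over all). The log2 change was negative for 7 genes and positive for 2, with a median of -0.32 beside a median of -0.01 over all tested genes, of which 6914 were negative and 6536 positive. Without knockdown library 3 the median of the 9 was -0.64. In 3 of the 9 genes (Eln, Fbln5 and Bgn) every knockdown library lay below every control, which held for 10.9% of tested genes. In none did every knockdown library lie above every control, which held for 9.63% of tested genes. With quantile normalization Bgn dropped out of the first count and Eln and Fbln5 stayed. In RNA from a whole culture, fewer cells of a type and less RNA per cell cannot be told apart.

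**Figure D1:**
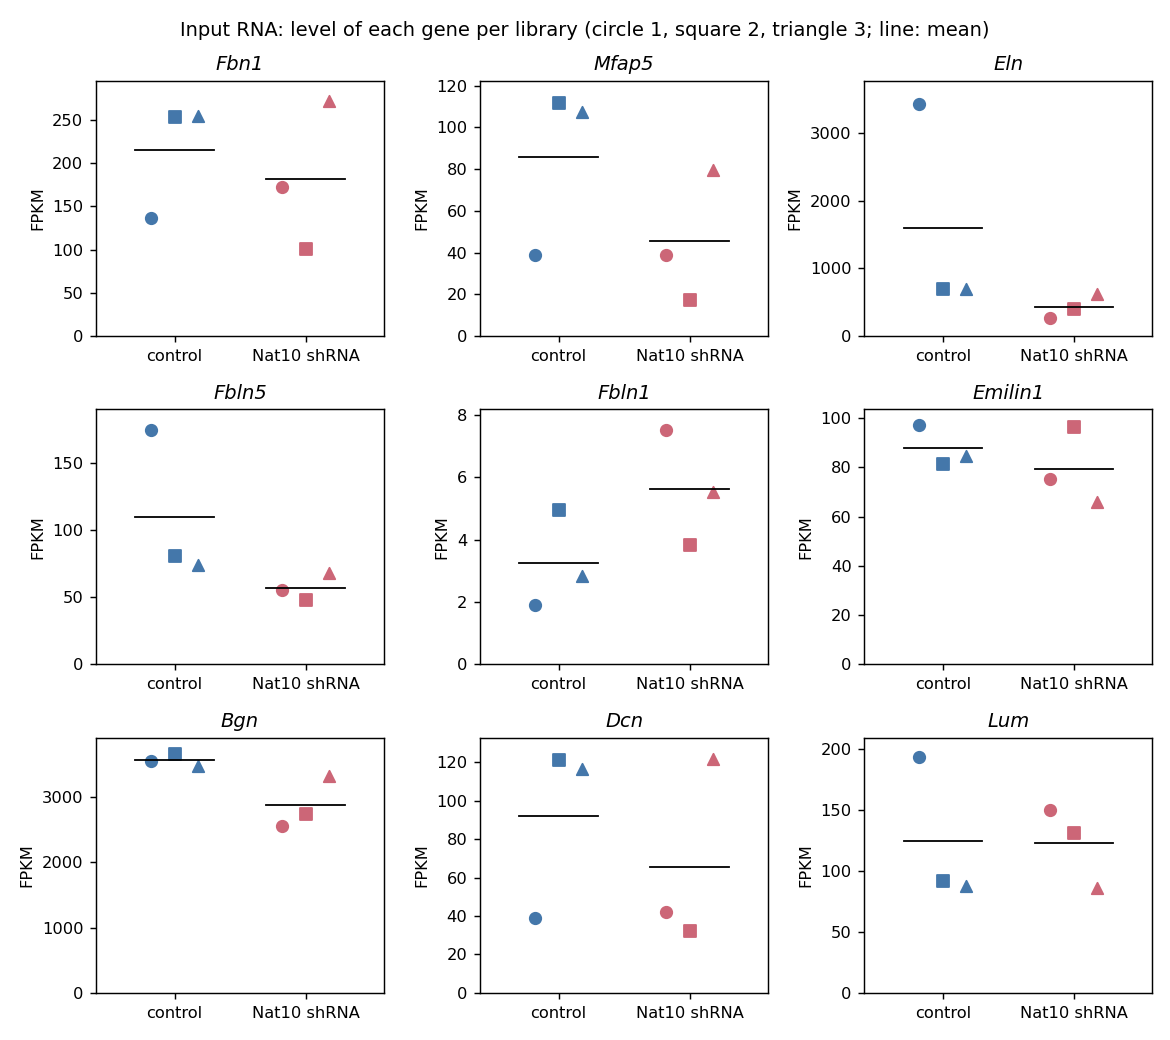
Level of each of the 9 genes in input RNA (y axis, FPKM, from 0) in the 3 control and 3 Nat10 shRNA libraries (x axis). Points are libraries, with circles for replicate 1, squares for 2 and triangles for 3, and the line is the group mean. Eln and Fbln5 are highest in control library 1, and Fbn1, Mfap5 and Dcn are low in that library and in knockdown libraries 1 and 2.

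Fibrillin-1 and its microfibril partner varied together between libraries, and their groups overlapped. Fbn1 (ENSRNOG00000007302), which encodes fibrillin-1, the backbone of the microfibril, measured 136.2, 253.5 and 255.2 FPKM across the controls and 172.8, 101.1 and 272.6 FPKM after knockdown. The groups overlapped: knockdown library 3 was the highest of all 6 and knockdown library 2 the lowest. Group means came to 215 ± 68.3 and 182 ± 86.1 FPKM (SD, n = 3 each), a log2 change of -0.29 (95% interval -1.27 to 0.68, adjusted p = 0.798). Leaving out control library 1 gave -0.59, leaving out knockdown library 3 gave -0.64 and leaving out knockdown library 2 gave 0.07.

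Mfap5 (ENSRNOG00000015505), whose product MAGP-2 binds fibrillin microfibrils, measured 38.75, 111.7 and 107.6 FPKM across the controls and 38.93, 17.33 and 79.82 FPKM after knockdown. Control library 1 was as low as knockdown library 1, so the groups overlapped here too. Group means came to 86.0 ± 41.0 and 45.4 ± 31.7 FPKM (SD, n = 3 each), with a log2 change of -1.01 (95% interval -2.46 to 0.43, adjusted p = 0.533). Leaving out control library 1 gave -1.51, leaving out knockdown library 3 gave -1.54 and leaving out knockdown library 2 gave -0.47. The bases just upstream of both genes are shown because their levels varied together across libraries (250 bases up to the start, RefSeq assembly GRCr8, read 5′ to 3′ on the gene's strand, chr3:133203391-133203640 on the minus strand for Fbn1 and chr4:157399669-157399918 on the plus strand for Mfap5). Capitals mark motif matches.
Fbn1: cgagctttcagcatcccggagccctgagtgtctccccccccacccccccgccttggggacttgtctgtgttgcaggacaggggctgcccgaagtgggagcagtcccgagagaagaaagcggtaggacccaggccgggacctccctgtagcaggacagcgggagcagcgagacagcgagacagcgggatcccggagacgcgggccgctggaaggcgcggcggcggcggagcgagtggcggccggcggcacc
Mfap5: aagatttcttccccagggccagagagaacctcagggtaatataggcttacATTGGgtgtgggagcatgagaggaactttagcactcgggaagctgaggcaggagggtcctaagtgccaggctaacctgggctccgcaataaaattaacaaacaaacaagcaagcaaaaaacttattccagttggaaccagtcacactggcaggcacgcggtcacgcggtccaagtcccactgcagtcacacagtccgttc
The Fbn1 stretch was 71.2% G or C and the Mfap5 stretch 51.6%, against a median of 51.2% over 33469 promoters (quartiles 44.0% and 60.0%). The motifs searched on both strands were the TATA box TATAAA (in 12.9% of those promoters), CCAAT (34.0%), the GC box GGGCGG (30.5%), the AP-1 site TGANTCA (6.34%), the CArG box (1.5%) and the SMAD repeat AGACAGAC (1.48%). Mfap5 held 1 CCAAT match on the reverse strand, which begins 200 bases before the gene's start. Fbn1 held none of the 6. A match is a description of letters and was not tested as a binding site.

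Elastin showed the widest spread of the 9 genes. Eln (ENSRNOG00000001469), which encodes tropoelastin, the soluble precursor of the elastic core, measured 3429, 686.8 and 691.8 FPKM across the controls and 265.9, 396.3 and 620.4 FPKM after knockdown. Every knockdown library lay below every control, although knockdown library 3 was close to control libraries 2 and 3. Group means came to 1602 ± 1582 and 427.5 ± 179 FPKM (SD, n = 3 each), with a log2 change of -1.54 (standard error 0.67, 95% interval -3.13 to 0.04, adjusted p = 0.408). The control mean rests on 1 library: control library 1 held 4.96 times the level of the higher of the other controls, a ratio exceeded by 8 of 6732 genes with a mean of at least 10 FPKM. Leaving it out gave a log2 change of -0.77 (adjusted p = 0.542, with 0.218 to 0.804 over all alternatives). Eln ranked 16th of all listed genes in control library 1, 76th and 78th in the other controls, and 185th, 142nd and 97th in the knockdown libraries.

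Fbln5 (ENSRNOG00000050539), the fibulin that tethers tropoelastin to microfibrils and cells, measured 174.7, 80.71 and 74.17 FPKM across the controls and 55.57, 47.94 and 68.55 FPKM after knockdown. The groups did not overlap, and control library 1 was again the highest, at 2.16 times the higher of the other controls. Group means came to 110 ± 56.2 and 57.4 ± 10.4 FPKM (SD, n = 3 each), with a log2 change of -0.83 (standard error 0.34, 95% interval -1.64 to -0.02, unadjusted p = 0.0463, adjusted p = 0.392, limma). Leaving out control library 1 gave -0.44 (adjusted p = 0.535, with 0.269 to 0.804 over all alternatives). With knockdown library 2 left out as well it was -0.32. The 250 bases upstream of the gene (GRCr8, chr6:126742707-126742956, minus strand) are shown because Fbln5 is the member at an unadjusted p under 0.05, with the motif match in capitals.
Fbln5: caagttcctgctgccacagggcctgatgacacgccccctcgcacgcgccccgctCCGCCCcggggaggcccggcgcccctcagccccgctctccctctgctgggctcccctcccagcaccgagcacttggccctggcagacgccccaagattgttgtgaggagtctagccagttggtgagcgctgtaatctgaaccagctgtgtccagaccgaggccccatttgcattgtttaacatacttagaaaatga
The stretch was 63.2% G or C and held 1 GC box on the reverse strand, which begins 196 bases before the start, and none of the other motifs.

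Fbln1 was the least abundant member, and its estimated change was positive with overlapping groups. Fbln1 (ENSRNOG00000014137), a fibulin of elastic tissue and basement membranes, measured 1.92, 4.97 and 2.85 FPKM across the controls and 7.51, 3.84 and 5.54 FPKM after knockdown. These values rest on 71 to 177 fragments a library, and knockdown library 2 lay below control library 2. The log2 change was 0.67 (95% interval -0.13 to 1.47, adjusted p = 0.469), and 0.43 without control library 1.

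Emilin1 (ENSRNOG00000008246), a glycoprotein at the interface of elastin and microfibril, had the narrowest range between libraries of the elastic fibre genes. It measured 97.03, 81.53 and 84.7 FPKM across the controls and 75.22, 96.44 and 65.87 FPKM after knockdown, with overlapping groups and a log2 change of -0.16 (95% interval -0.62 to 0.3, adjusted p = 0.76). It came to -0.31 when knockdown library 2 was left out, to -0.04 when knockdown library 3 was, to -0.09 when control library 1 was, and to -0.01 on the total-fragment scaling.

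Among the small proteoglycans biglycan was by far the most abundant. Bgn (ENSRNOG00000055962), whose core protein carries glycosaminoglycan chains and binds collagen and TGF-beta, measured 3558, 3664 and 3475 FPKM across the controls and 2563, 2744 and 3329 FPKM after knockdown, ranking between 12th and 23rd of all listed genes in each library. Every knockdown library lay below every control, and the controls were nearly equal. Group means came to 3566 ± 94.7 and 2879 ± 400 FPKM (SD, n = 3 each). A change of -0.32 on the log2 scale had a 95% interval of -1.12 to 0.49 (adjusted p = 0.731, limma). That interval draws on the spread of other genes of like level as well as that of Bgn (standard error 0.34). On the total-fragment scaling it was -0.16.

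Decorin and lumican, which are neighbours on the chromosome (Dcn lies between Btg1 and Lum, and Lum between Dcn and Kera, in GRCr8), ran opposite to each other between libraries. Dcn (ENSRNOG00000004554), whose product decorates collagen fibrils, measured 38.7, 121.1 and 116.7 FPKM across the controls and 42.12, 32.23 and 121.8 FPKM after knockdown. Control libraries 2 and 3 and knockdown library 3 were high and the other 3 low, so the groups overlapped, and the log2 change of -0.57 had a 95% interval of -2.0 to 0.87 (adjusted p = 0.731). Leaving out control library 1 gave -1.1, leaving out knockdown library 3 gave -1.13 and leaving out knockdown library 2 gave -0.19.

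Lum (ENSRNOG00000004610), which encodes lumican, a regulator of collagen fibril spacing, was high where Dcn was low. It measured 193.5, 91.39 and 87.81 FPKM across the controls and 150.0, 131.2 and 86.12 FPKM after knockdown. The groups overlapped, with a log2 change of 0.04 (95% interval -0.81 to 0.89, adjusted p = 0.97) and of 0.41 without control library 1. The ratio of Lum to Dcn was 5.0, 0.755 and 0.753 in the controls and 3.56, 4.07 and 0.707 in the knockdown libraries, so it split the 6 libraries into 3 high and 3 low across both groups. The 250 bases upstream of Lum (GRCr8, chr7:34245456-34245705, plus strand) are shown because its level ran opposite to that of Dcn.
Lum: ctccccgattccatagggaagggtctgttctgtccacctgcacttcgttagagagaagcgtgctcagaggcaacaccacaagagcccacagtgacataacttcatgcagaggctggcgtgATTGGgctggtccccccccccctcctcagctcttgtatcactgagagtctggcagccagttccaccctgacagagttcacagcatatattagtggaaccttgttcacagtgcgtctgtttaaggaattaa
The stretch was 52.8% G or C and held 1 CCAAT match on the reverse strand, in capitals, which begins 130 bases before the start.

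In the controls the levels ran from Bgn through Eln to Fbn1 with no overlap between these 3, then through Lum, Fbln5, Dcn, Emilin1 and Mfap5, each overlapping its neighbour, to Fbln1, which lay below all. In the knockdown libraries Bgn stood apart from Eln and Mfap5 from Fbln1, while all neighbours between them overlapped. Ratios within a library set control library 1 apart: Eln over Fbn1 was 25.2 in control library 1, 2.71 in both other controls, and 1.54, 3.92 and 2.28 in the knockdown libraries.

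**Figure D2:**
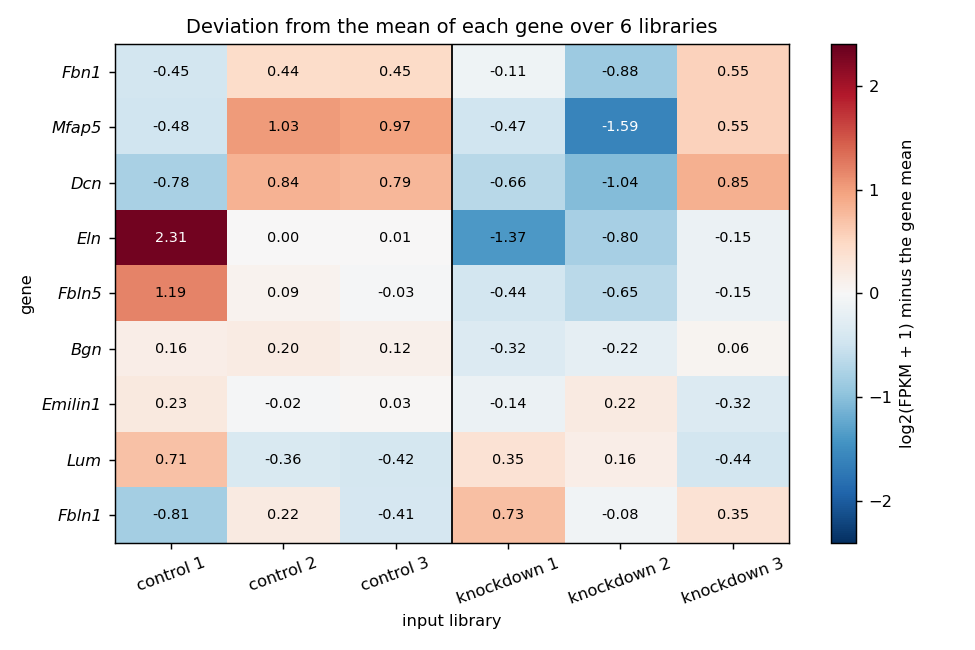
Deviation of each gene's log2(FPKM + 1) from its mean over the 6 input libraries (color, red above and blue below, with the value printed in each cell), with genes in rows and libraries in columns. Eln stands 2.31 above its mean in control library 1 and Mfap5 1.59 below in knockdown library 2.

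Over the 6 libraries the profiles fell into a few shapes. The Pearson correlation was 0.96 between Fbn1 and Mfap5, 0.95 between Fbn1 and Dcn, 0.94 between Mfap5 and Dcn, and 0.97 between Eln and Fbln5. It was -0.89 between Dcn and Lum, -0.78 between Fbn1 and Lum, and -0.82 between Eln and Fbln1. These correlations are descriptions over 6 libraries of which control libraries 2 and 3 nearly repeat each other, and all genes of a library share its depth and scaling. Leaving out control library 1, a choice made after seeing the data, gave 0.81 for Eln with Fbln5 and -0.59 for Eln with Fbln1 over 5 libraries. The other 5 correlations named here moved to 0.97, 0.94, 0.96, -0.94 and -0.79, in the order given. Pairs not named above moved further. Fbln5 went from 0.01 to 0.92 with Fbn1, from 0.2 to 0.98 with Mfap5 and from -0.01 to 0.96 with Dcn. Eln went from -0.08 to 0.67 with Fbn1, from -0.04 to 0.88 with Dcn and from 0.37 to -0.97 with Lum. The separation of Eln and Fbln5 from Fbn1, Mfap5 and Dcn thus rested on control library 1.

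The gene most like the mean profile of the 9 was Rgs19 (r = 0.998), followed by Nacc2 (0.995), Arhgef2 (0.995) and Plxdc2 (0.994), out of 6724 candidates with a mean of at least 10 FPKM. For single members the most alike gene was Fbln2 for Fbn1 (0.998), Mbnl1 for Mfap5 (0.999), Snai2 for Eln (0.996), Myl9 for Fbln5 (0.986), Phf20l1 for Fbln1 (0.988), Inafm1 for Emilin1 (0.999), Tspan18 for Bgn (0.997), Cop1 for Dcn (0.999) and Gm2a for Lum (0.986). Fbln2, another fibulin of the elastic fibre, measured 220, 422.2 and 433.5 FPKM across the controls and 278.3, 168.1 and 483.2 FPKM after knockdown, which tracks the Fbn1 values library by library. Of the candidates, 412 (6.13%) reached a correlation of 0.9 with Fbn1, among them 5 of 14 elastic fibre companions (Fbln2, Lox, Loxl4, Ltbp1 and Loxl3), 1 of 4 small proteoglycan companions (Prelp), 1 of 13 genes of chain synthesis (Dse) and 1 of 14 partners (Tgfb1). With Eln it was 96 (1.43%), and none of the companion genes. Without control library 1 the counts were 909 (13.5%) for Fbn1, with 7, 1, 3 and 5 genes of these lists in the same order, and 378 (5.62%) for Eln, with 1, 1, 0 and 3. Without it the correlation with the most alike gene was 0.997 for Eln and Snai2 and 0.925 for Fbln5 and Myl9.

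The other genes of the same matrix were counted from 4 lists of companions, 63 of whose genes were tested. None passed the adjusted threshold. At an unadjusted p under 0.05, 2 were higher and 6 lower, beside 744 higher and 935 lower of the 13450 tested genes (12.5% in either direction). The median change of the 63 was -0.22 on the log2 scale. Leaving out knockdown library 3 gave 14 lower, beside 1431 lower of all tested genes. Leaving out knockdown library 2 gave 5 higher, beside 1014 higher of all tested genes. Leaving out control library 2 or 3 gave 1 or 0 higher and 4 lower, beside 365 or 356 higher and 468 or 484 lower of all tested genes. In 5 of the 63 every knockdown library lay below every control and in 4 above, beside 10.9% and 9.63% of all tested genes.

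Of 18 tested elastic fibre companions, 15 were negative and 3 positive, with a median of -0.25 on the log2 scale. At an unadjusted p under 0.05, 2 were lower and 1 higher, beside 935 lower and 744 higher of the 13450 tested genes. Adamtsl4, an ADAMTS-like protein that binds fibrillin, measured 62.9, 74.93 and 70.51 FPKM across the controls and 44.34, 45.74 and 44.79 FPKM after knockdown (a log2 change of -0.61, standard error 0.15, adjusted p = 0.268, limma). Efemp2, or fibulin-4, which brings lysyl oxidase to elastin, stood at 117.5, 178.8 and 175.6 against 88.76, 61.81 and 106.7 FPKM (log2 change -0.88, adjusted p = 0.309). Emilin2 went the other way, with 5.52, 6.94 and 4.89 FPKM across the controls and 8.42, 9.79 and 14.24 FPKM after knockdown (log2 change 0.78, adjusted p = 0.308). In these 3 the groups did not overlap. Ltbp2, a latent TGF-beta binding protein of microfibrils, stood at 503.5 to 666.3 FPKM in the controls and 318.1 to 720.9 FPKM in the knockdown libraries, with overlap (log2 change -0.43).

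Of 7 tested small leucine-rich proteoglycan companions, 6 were negative (median -0.35 on the log2 scale), and none reached an unadjusted p of 0.05. Fmod, or fibromodulin, measured 15.32, 30.02 and 32.0 FPKM across the controls and 4.78, 7.87 and 33.68 FPKM after knockdown (log2 change -1.08, adjusted p = 0.533), with knockdown library 3 above every control. Podnl1 (-0.59), Ogn (-0.69) and Chad (0.35) had wider or lower values and also overlapped.

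The enzymes that build the chondroitin and dermatan sulfate chains carried by decorin and biglycan had a median change of the opposite sign. Of 21 tested, 12 were positive and 9 negative, with a median log2 change of 0.18. At an unadjusted p under 0.05, 1 was higher, beside 744 higher of the 13450 tested genes. Chpf, a chondroitin polymerizing factor, measured 51.64, 44.13 and 43.95 FPKM across the controls and 63.6, 61.08 and 58.95 FPKM after knockdown, without overlap (log2 change 0.39, adjusted p = 0.373). Chst11, a chondroitin sulfotransferase, stood at 54.83 to 55.88 FPKM in the controls and 62.31 to 144.3 FPKM in the knockdown libraries (log2 change 0.61). B3gat3 (0.63) and Csgalnact1 (-0.48), enzymes of the linker and of chain start, overlapped between groups.

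Of 17 collagen, growth factor and receptor partners, 13 were negative and 4 positive, with a median of -0.51. At an unadjusted p under 0.05, 4 were lower, beside 935 lower of the 13450 tested genes. Col3a1 measured 1653, 1696 and 1768 FPKM across the controls and 196.9, 81.88 and 575.4 FPKM after knockdown (log2 change -3.01, adjusted p = 0.253). Col5a2 stood at 833.7, 983 and 1017 against 129, 65.27 and 306 FPKM (log2 change -2.77, adjusted p = 0.22), and Col5a1 at 379.4, 413.3 and 432.2 against 99.08, 93.99 and 225 FPKM (log2 change -1.66, adjusted p = 0.245). In these 3 collagens the groups did not overlap, and knockdown library 3 was the highest of its group. Col1a2 stood at 181.2, 175.7 and 219.7 against 81.79, 43.43 and 178.2 FPKM (log2 change -1.14, adjusted p = 0.389), where knockdown library 3 lay within the control range.

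**Figure D3:**
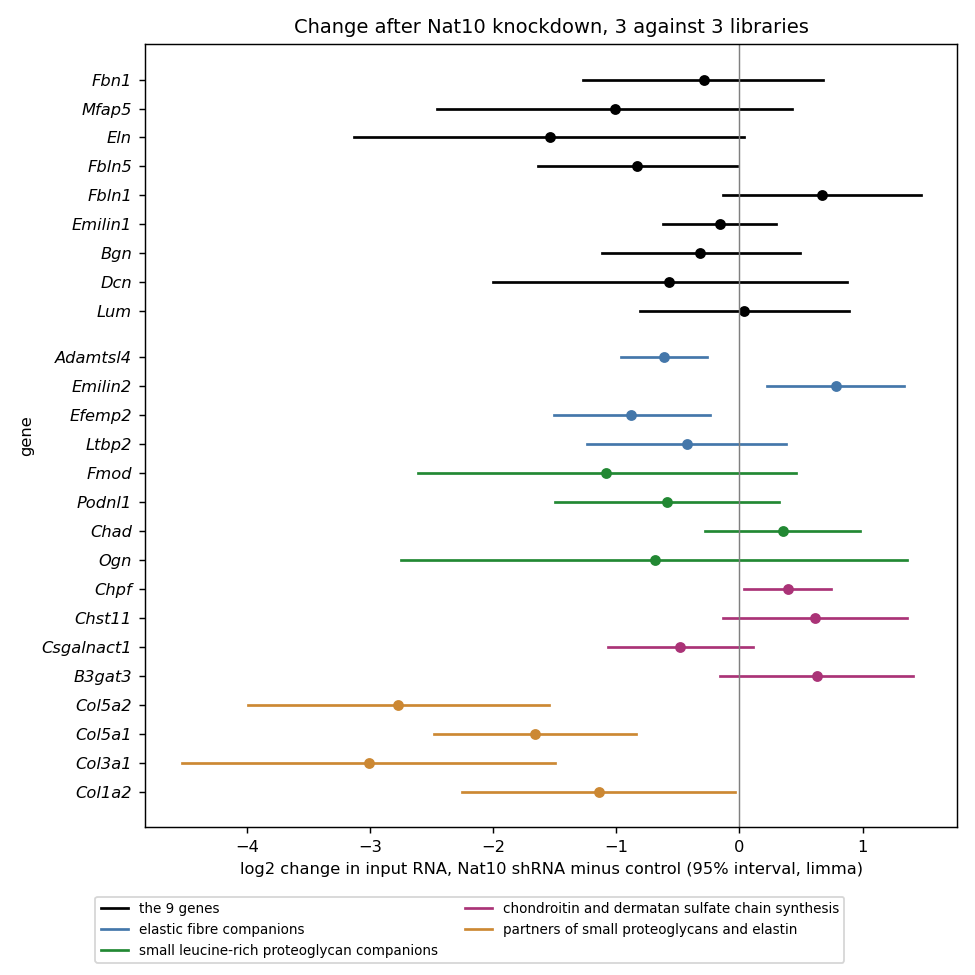
Log2 change in input RNA (x axis, Nat10 shRNA minus control, limma on log2(FPKM + 1)) for the 9 genes (black) and for 4 named genes of each companion list (colors), with genes on the y axis. Points are estimates and bars 95% intervals, from 3 against 3 libraries. Of the 9, the bars of 8 cross 0 and that of Fbln5 ends at -0.02.

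The ac4C peak lists held 29998, 29593 and 3479 peaks in controls 1 to 3 and 3111, 2658 and 2592 in knockdown lists 1 to 3. In control lists 1 and 2, 26881 and 27673 of the peaks shared 1 p-value, and none of the members' peaks was among them. The read depth behind the lists is unknown. Of the 9 genes, 6 had a peak in at least 1 of the 6 lists, against 47.6% of tested genes and 70.9% of the 1425 genes with a mean of at least 50 FPKM. In all 6 lists 1 of the 9 had a peak, against 2.09% of tested genes and 7.65% of those with at least 50 FPKM. None had a peak in all 3 control lists and no knockdown list, which held for 0.491% of tested genes. These shares over all genes are not given with the peaks that share 1 p-value left out, so they may count peaks unlike those of the members. The number of members with a peak was 3, 2 and 4 in the control lists and 3, 2 and 5 in the knockdown lists, a difference of -0.33 (control minus knockdown, two-sided exact permutation test over lists, p = 1, where the smallest possible p is 0.1). No difference beyond the spread between lists was seen.

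Bgn was the gene with a peak in every list. In all 3 controls it was the same stretch of 809 bases, chrX:157319046-157319854, listed with a p-value of 0 (coordinates as in the deposited lists, counted from 1). The peaks of the knockdown lists lay on the same region. They spanned 301 bases in list 1 (chrX:157319435-157319735) and 211 bases in list 2 (chrX:157319555-157319765), both inside the control stretch. List 3 held a peak of 211 bases and one of 690 bases, chrX:157319375-157320064, which ran past the control stretch. The depth of these lists is unknown, and the difference in width was not tested.

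Emilin1 had a peak at chr6:26828672-26828942 in 5 lists, controls 1 and 3 and all 3 knockdown lists, and at chr6:26821255-26821465 in control 1 and knockdown 3. Eln had peaks in 1 control and 2 knockdown lists, at chr12:24992798-24996161 and chr12:25016365-25017962, in control 3 and knockdown 1 and 3, and 2 further peaks in knockdown 3. Fbn1 had a peak at chr3:117569697-117569847 in controls 1 and 2 and another at chr3:117570566-117570926 in knockdown 3. Mfap5 had 1 peak, chr4:155335964-155336140, in control 3, and Fbln5 1, chr6:125644804-125644954, in knockdown 3. Fbln1, Dcn and Lum had none in any list. Whether these stretches are exonic or in an untranslated region was not analysed here.

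**Figure D4:**
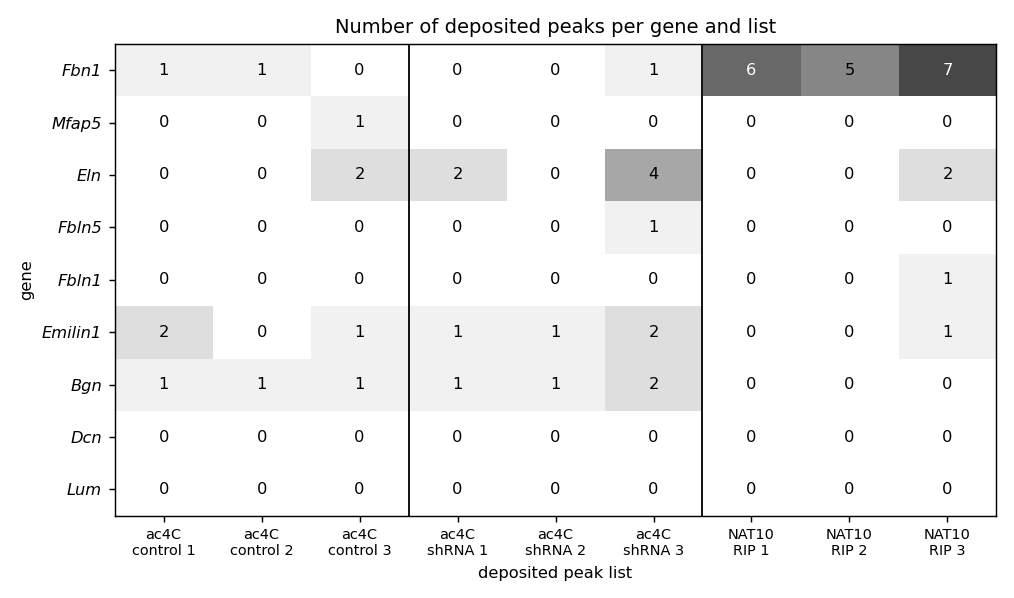
Number of deposited peaks for each of the 9 genes (rows) in each of the 6 ac4C lists and 3 NAT10 RIP lists (columns), as number and gray shade. Bgn has an ac4C peak in all 6 lists, and Fbn1 has 5 to 7 NAT10 RIP peaks in each of its 3 lists.

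In the NAT10 RIP lists, Fbn1 was the member with peaks in every library. It had 6, 5 and 7 peaks in lists 1 to 3, and 4 of its 8 regions were called in all 3 lists (chr3:117599255-117601527, chr3:117611996-117613064, chr3:117615111-117615679 and chr3:117638640-117640862). The authors' log2 enrichment of its peaks was 0.87 to 1.01, below the list medians of 1.09, 1.07 and 1.09. Genes with more peaks than Fbn1 numbered 95 of 586 in list 1, 103 of 563 in list 2 and 56 of 548 in list 3. Of the 9 genes, 4 had a NAT10 RIP peak in at least 1 list, against 5.93% of tested genes and 18.0% of those with at least 50 FPKM, and 1 had one in all 3, against 2.68% and 9.47%.

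The other 3 had peaks in list 3 alone. Eln had 2, Emilin1 1 and Fbln1 1, and the first Eln peak and the Fbln1 peak carried the same enrichment of 1.27 and the same p-value of 5.38e-06. Bgn, with an ac4C peak in every list, had no NAT10 RIP peak, and neither had Mfap5, Fbln5, Dcn or Lum. No NAT10 RIP peak of Fbn1 overlapped one of its ac4C peaks. The Eln peaks of NAT10 RIP list 3 shared 11 to 50 bases with Eln ac4C peaks: 26 each with control 3 and knockdown 1, and 11 and 50 with knockdown 3. The RIP samples were untreated cells and the ac4C samples virus-treated, so these overlaps set different cultures side by side.

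**Figure D5:**
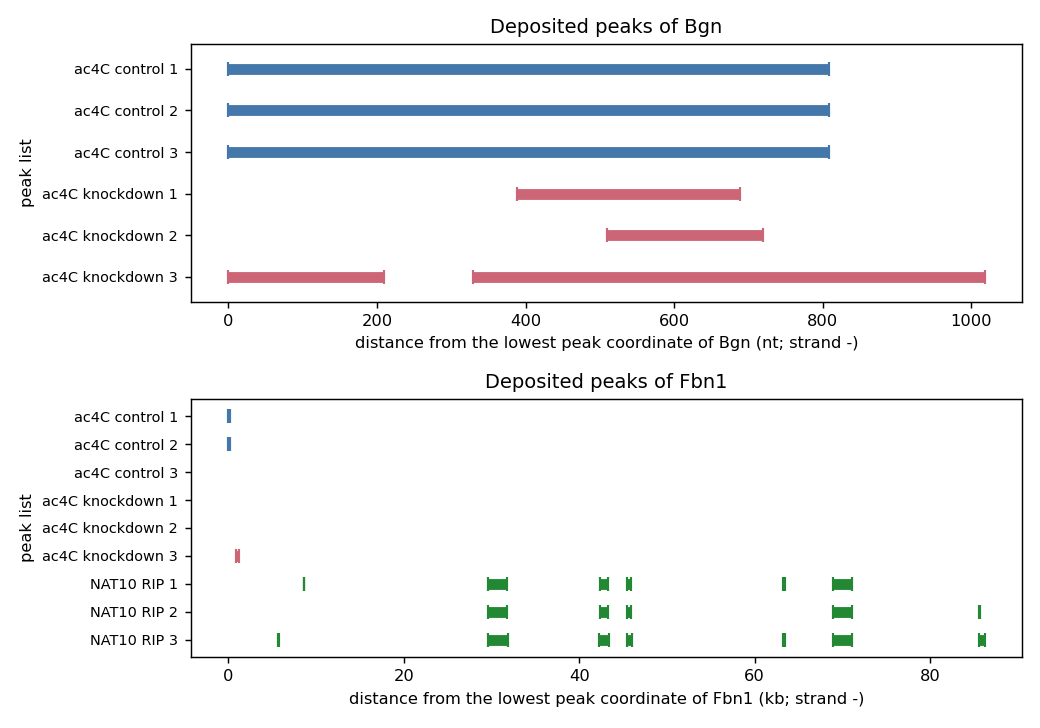
Extents of the deposited peaks of Bgn (top, in nt) and Fbn1 (bottom, in kb) as distance from the lowest peak coordinate of the gene (x axis), by peak list (y axis), with ac4C controls in blue, ac4C knockdown in red and NAT10 RIP in green. The 3 control peaks of Bgn are 809 nt wide and coincide, and the Fbn1 NAT10 RIP peaks lie away from its ac4C peaks. Bars span the gaps between the blocks of a peak.

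Among the companions, Ltbp1, Loxl1 and Prelp had NAT10 RIP peaks in all 3 lists, as had Col5a1, Col6a1 and Tgfb2. Ltbp1 had an ac4C peak in 2 control lists and 1 knockdown list, and Loxl1 in 1 control list. Adamtsl4 had an ac4C peak in all 3 control lists and in no knockdown list, and its RNA was also lower, and whether its peaks follow its RNA level was not tested. Whether the companions' peaks in control lists 1 and 2 are among the 26881 and 27673 that share 1 p-value is not given here. The knockdown lists held 0 such peaks, so the counts of control and knockdown lists may not be alike. Efemp2 had a peak in 3 control and 2 knockdown lists, Col6a2 in 3 and 1, Tgfb2 in 3 and 2, and Ltbp2, Chpf and Col5a2 in 2 and 3. Col1a1, Col1a2, Col3a1 and Tgfb3 had one in all 6 lists. Among tested genes, an ac4C peak in at least 1 list was found for 12 of 18 elastic fibre companions and 5 of 7 small proteoglycan companions. It was found for 12 of 21 genes of chain synthesis and 13 of 17 partners. The share was 47.6% of all tested genes and 70.9% of those with a mean of at least 50 FPKM, again not given with the peaks that share 1 p-value left out. The companions too low to be tested had no ac4C peak.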

How the data were processed

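Expression was deposited by the authors as FPKM for 6 input libraries. Per the file headers, each ac4C list holds peaks with a p-value, and each NAT10 RIP list holds a log2 enrichment, p-values and their −log10 values. There is 1 list per library. The peak callers, the RIP control and the build behind each step were not given in the sources used here. DESeq2, HOMER 4.10.4, featureCounts 1.6.3, HISAT2 2.1.0 and cutadapt 2.5 and the builds GRCh38, GRCm38 and rn6 appear, without roles, in the submitters' processing notes. Coordinates follow the deposited lists. RefSeq promoters come from assembly GRCr8.

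Genes with a mean of at least 1 FPKM (13450) entered limma (version 3.58.1, R 4.3.3) as log2(FPKM + 1), with a mean-variance trend, two-sided tests, group as the only term and Benjamini-Hochberg adjustment at 0.05. Changes are on that scale, which understates those of low genes. Whole fragments were recovered for 21401 of 21401 genes above 0 (relative tolerance 2e-08) and entered a voom fit only. The deposited values follow median-of-ratios size factors. The fit was also run on simulated data as a check of the code. The spread within groups there was smaller than that of genes such as Eln here, so the run does not show the power in these data. Peaks were compared by shared bases of their blocks (at least 1). The alternatives were 16 fits of input RNA and other peak filters.

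The members and lists were chosen with earlier results of these data known. Named genes were the 9 members, the 4 smallest p-values per companion list, list genes with peaks in all libraries of a group, the genes most alike in profile and Nat10. One gene that this rule names is not reported here. Of 80 companion symbols 76 matched the deposited names. The non-immunoprecipitated library of the RIP assay was not analysed here.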

Additional observations from a re-analysis of the deposited data

How the results depend on the processing

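No alternative brought a member past an adjusted p of 0.05 (limma or voom, 16 fits, 15 for Fbln1, which falls under a filter of 5 FPKM). Over these fits the log2 change of Eln ran from -1.93 to -0.76, of Fbln5 from -1.05 to -0.32 and of Mfap5 from -1.54 to -0.47. Quality weights called 120 genes higher and 215 lower over all genes (0 and 0 otherwise, and 0 to 1 in each direction with 1 library left out), and Nat10 then passed (-0.97, adjusted p = 0.0399, against 0.0399 to 0.797 over its alternatives). The count of members at an unadjusted p under 0.05, which was 1, was 0 without a filter, 0 on total scaling, 0 without control library 1 and knockdown library 2, 2 with weights, 2 in voom, 2 with control libraries 2 and 3 averaged, and 0 to 3 with 1 library left out. Over all genes this p was reached by 1610 higher and 1910 lower with weights, and by 331 and 485 with averaged controls. The counts over all genes were 729 and 967 in voom, 934 and 1025 without a filter, and 995 and 1083 without control library 1 and knockdown library 2. With 1 library left out they ran from 356 to 1146 higher and from 468 to 1431 lower. The members' median, -0.32, was -0.16 on total scaling and -0.17 with quantile normalization, and ran from -0.64 (without knockdown library 3) to -0.29 with 1 library left out. Companions counted 2 higher and 6 lower, and with weights 5 and 14, with the averaged controls 1 higher, and with 1 library left out 0 to 5 higher and 4 to 14 lower. These counts are to be read beside those over all genes in the same fits, given above. Deviations of same-numbered control and knockdown libraries correlated at -0.21, -0.28 and 0.18, so the numbers were not taken as pairs. With the replicate block companions counted 1 higher and 10 lower, beside 500 and 676 over all genes, and the members' median stayed at -0.32. Lum ran from -0.16 to 0.41 with 1 library left out. It reversed to -0.14 with averaged controls, to -0.13 and -0.16 without control library 2 or 3, and to -0.12 and -0.03 without knockdown library 1 or 2. Fbn1 reversed to 0.07 without knockdown library 2. The ac4C difference ran from -1.0 to 0.5 with 1 list left out, reversing to 0.17 without control list 2 and 0.5 without knockdown list 3. Members with a NAT10 RIP peak, 4, were 2 above the median enrichment, 1 where all 3 lists overlap, and 1 to 4 with 1 list left out (1 without list 3). The cause was not tested. Total scaling moved the median of all genes from -0.01 to 0.12 and the genes at an unadjusted p under 0.05 from 744 higher and 935 lower to 1129 and 569. Depth limits Fbln1 most, at 71 to 177 fragments.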
